A study of Gallus gallus with 2 samples.

Results

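The cytosolic ribosomal protein genes were examined in DT40, a B cell line of chicken, after double knockout of H2A.Z. Members were the genes whose RefSeq symbol starts with RPL or RPS followed by a digit, RPLP, or RPSA, leaving out the S6 kinases (RPS6K). Under this rule 51 genes were found among 5382 named genes, and they were read by 105 of 11935 named probes. There were 33 large subunit symbols on 70 probes and 18 small subunit symbols on 35 probes. One array held RNA of cells that stably expressed FLAG-tagged H2A.Z-R80C, a mutant of the histone variant H2A.Z, and 1 array held RNA of cells that stably expressed FLAG-tagged H2A.Z.1. Both groups carried the double knockout and were grown without tetracycline. The sources used here do not say whether either culture came from 1 clone. Since each group was 1 array, no difference could be tested, and all values describe these 2 arrays.

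Some symbols of the RefSeq table are unusual names of ordinary genes. The table lists RPS4X as another name of RPS4Y1, RPL39 of RPL39L, RPL26 of RPL26L1 and RPSA of RPSAP58. RPS19BP1 fits the rule by its spelling, although its product binds RPS19 and is no part of the mature ribosome. The rule also matched 22 symbols to which no probe was assigned here, 11 of the large subunit (among them RPL10A, RPL11, RPL14, RPL15, RPL21, RPL23, RPL23A, RPL24, RPL36A and RPLP2) and 11 of the small subunit (RPS7, RPS15A, RPS16, RPS20, RPS21, RPS23, RPS25, RPS26, RPS27, RPS27A and RPS28). These were not analysed here. RPL10 and RPS19 were not analysed here either.

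Ribosomal proteins are made in the cytoplasm, imported into the nucleolus and assembled with ribosomal RNA into a small subunit, which decodes messenger RNA, and a large subunit, which joins amino acids. Growing cells make them in matched amounts. Their transcripts are abundant, and in vertebrates they begin with a pyrimidine tract through which the kinase mTOR and the RNA-binding protein LARP1 control their translation together. The transcription factor MYC, which is highly active in bursal lymphoma lines such as DT40, is a known activator of ribosome production. Transcript levels, as measured here, do not show translational control.

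The arrays were of similar quality. No spot was saturated, and the share of non-control spots well above background was 71.5% in R80C cells and 70.1% in H2A.Z.1 cells. The 75th percentile of the processed signal, on which the arrays were scaled, was 1055 in R80C cells and 1078 in H2A.Z.1 cells. A probe with equal signals on both arrays therefore has a scaled log2 difference above 0. The probe of MRPS30, a mitochondrial ribosome gene, read 6585.1 in R80C cells and 6585.5 in H2A.Z.1 cells and stood at 0.031. This is more than the median of 0.012 over the members, so a value above 0 need not mean a higher unscaled signal in R80C cells. All 12 B cell markers with a probe, among them CD79B, CD74 and POU2AF1, were well above background on both arrays, with a summed signal of 128293 in R80C cells and 139727 in H2A.Z.1 cells. Of the other lineages, 6 of 8 T and NK cell markers, 5 of 7 myeloid, 4 of 6 erythroid and thrombocyte, and 4 of 6 fibroblast markers had a probe above background on each array. In R80C cells the summed signals were 36519 for T and NK cells, 929 for myeloid cells, 298 for erythroid cells and thrombocytes, and 335 for fibroblasts. In H2A.Z.1 cells they were 40305, 999.7, 293 and 183 for the same lists. The T and NK sum was nearly all CD3D, while CD4 and GATA3 were not well above background on either array. The part of these marker levels in the values below was not tested.

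Ribosomal protein probes lay at the bright end of both arrays. All 105 were well above background on both. Their processed signals ran from 224 to 318692 in R80C cells, with a median of 132623, and from 264 to 319090 in H2A.Z.1 cells, with a median of 136391. The lowest belonged to a probe for RPS12 and the highest to a probe for RPLP1. A signal of 100000 or more on both arrays was reached by 71 of the 105 member probes (67.6%) and by 0.596% of all 43603 non-control probes. Member probes made up 0.241% of the non-control probes and carried 9.64% of the summed processed signal in R80C cells and 9.63% in H2A.Z.1 cells. Signal depends on the probe as well as on the amount of transcript, so these shares place the members on the brightness scale of the scanner and do not rank genes by abundance.

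**Figure D1:**
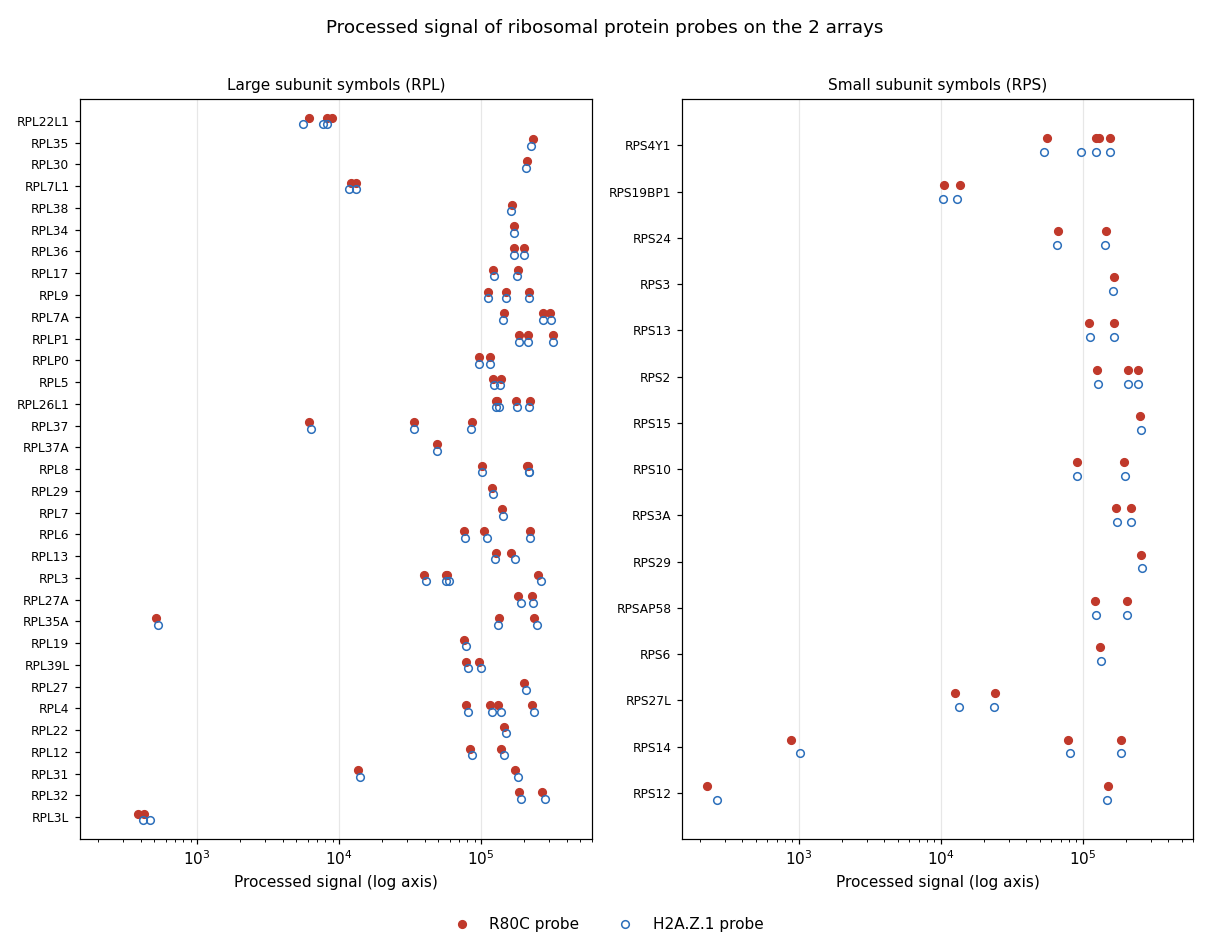
Processed signal of the probes of 48 ribosomal protein genes (horizontal log axis, arbitrary scanner units) by gene, with R80C as filled points above H2A.Z.1 as open points. Most probes lie near or above 100000 on both arrays, and single dim probes of RPL35A, RPS12 and RPS14 and both probes of RPL3L lie near or below 1000.

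The transcripts of the ribosome differed very little between the arrays. Differences are given as scaled log2 signal, R80C minus H2A.Z.1, and a gene's value is the mean over its probes. The median over the 51 genes was 0.012, against 0.013 over all 4326 named genes measured on both arrays. Values ran from -0.10 for RPL3L to 0.16 for RPS4Y1, with a standard deviation (SD) between genes of 0.044, against 0.20 over all named genes. No member was 2-fold different (0.462% of named genes were), none was 1.5-fold different (1.94% of named genes) and none was 1.2-fold different (10.1% of named genes). Within 0.1 of 0 lay 48 of the 51 members (94.1%) and 62.2% of the named genes. Leaving out RPS19BP1, the median of the other 50 was 0.011.

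Brightness moved with this narrow spread. Among probes with a mean signal of 50000 or more, the 86 member probes had a median difference of 0.016 and an SD of 0.058, and the 477 other probes, named or not, had a median of 0.018 and an SD of 0.068. Within 0.1 of 0 lay 97.7% of these member probes and 86.8% of these other probes. How far brightness accounts for the narrow spread was not tested. The scanner's own error estimate was 10.0% of the signal, nearly the same share for bright and dim member probes. It gives an SD of 0.20 for a difference between the arrays. Only 2 of the 105 member probes lay farther than 1 such SD from 0, 1 of RPS4Y1 and 1 of RPS12. The spread measured between repeated spots of a probe was smaller, with an SD of 0.066 over 42 other probes spotted repeatedly. Between the probes of 1 gene the differences had an SD of 0.064 in the 36 members with several probes and of 0.094 in all 2776 named genes with several measured probes. Without RPS4Y1 the SD in the members was 0.044.

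**Figure D2:**
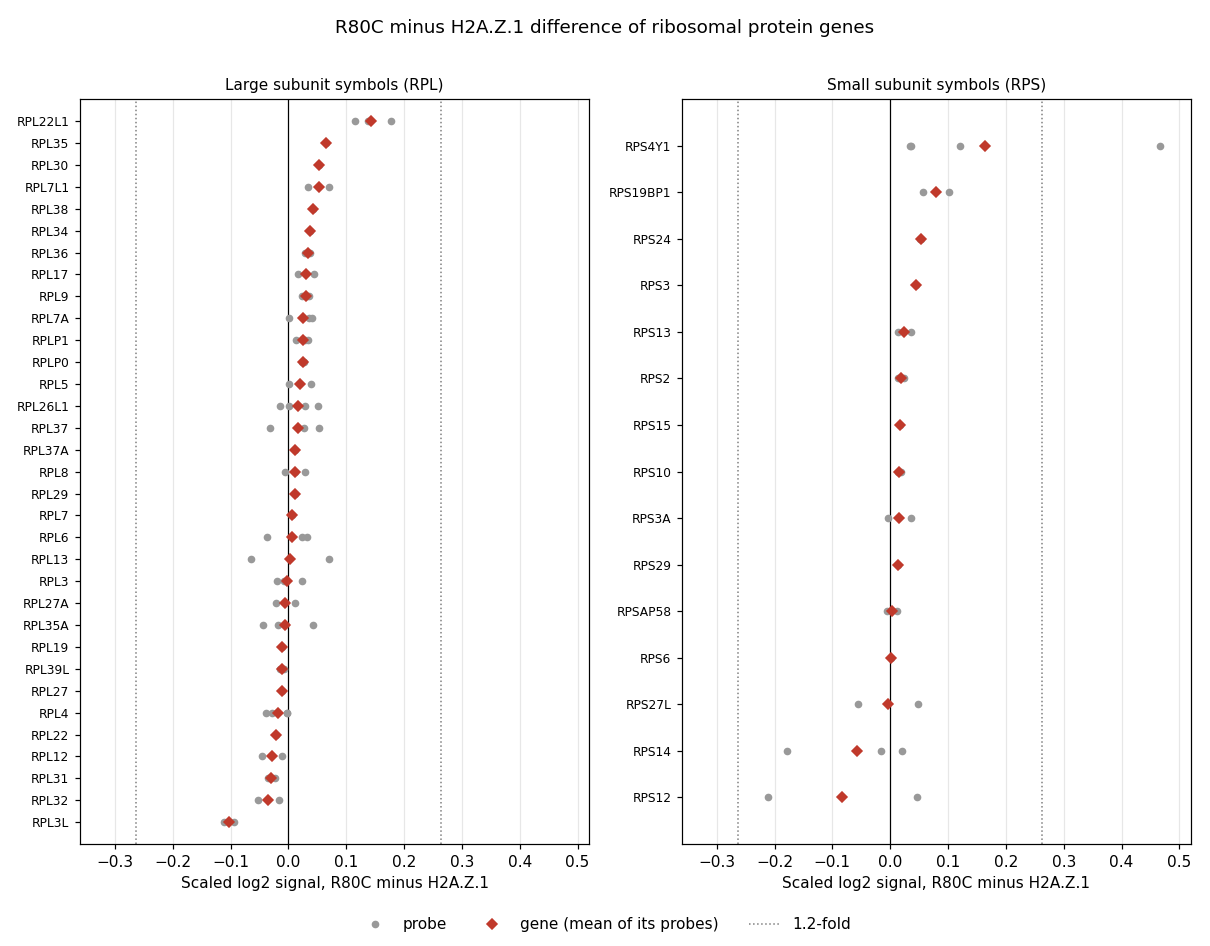
Scaled log2 signal, R80C minus H2A.Z.1 (horizontal axis), of each probe (grey points) and gene (red diamonds, mean of its probes) for 48 members, with dotted lines at 1.2-fold. The genes lie between -0.10 and 0.16, and the only probe past a dotted line is 1 of the 4 probes of RPS4Y1, at 0.47.

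**Figure D3:**
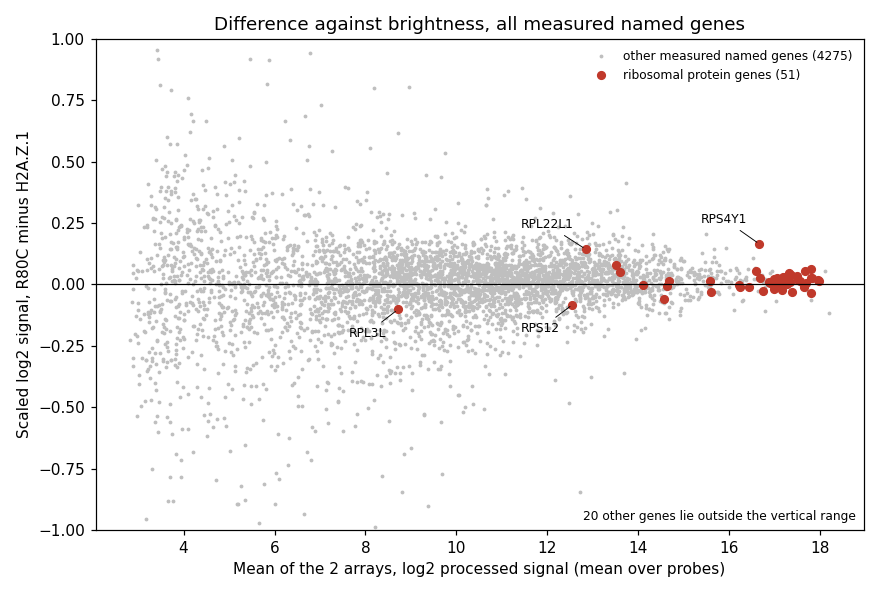
Scaled log2 signal, R80C minus H2A.Z.1, against the mean log2 processed signal of the 2 arrays for the 51 members (red) and the 4275 other measured named genes (grey). The spread of the grey points narrows towards high signal, where most members lie.

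The sign of such small values followed the scaling. In the main scaling 34 members lay above 0 and 17 below, a share of 66.7% above 0, against 55.6% of all named genes. When the arrays were scaled on their medians 48 members (94.1%) lay above 0, against 68.4% of all named genes. After loess between the arrays it was 24 members (47.1%), against 50.7%, and with scaling on the spike-in probes 18 members (35.3%), against 47.5%. The share of members above 0 was thus above that of all named genes in some scalings and below it in others. Across the main setting and 10 alternatives, 17 members stayed above 0, RPL3L alone stayed below 0, and 33 took both signs. The 17 were RPL5, RPL7A, RPL7L1, RPL9, RPL17, RPL22L1, RPL30, RPL35, RPL36, RPL38, RPLP0, RPLP1, RPS3, RPS4Y1, RPS13, RPS19BP1 and RPS24. The same count was not made for all named genes, and several alternatives keep the main scaling. Some of the 17 came close to 0, with lowest values of 0.00095 for RPL7A and 0.0011 for RPL5. In some settings RPL5, RPL7A, RPLP0, RPS3 and RPS13 lay below the median of all named genes, and the others of the 17 did not.

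The medians of the 2 subunits were close. The 33 genes with large subunit symbols had a median of 0.011 (21 above 0, 12 below) and a range of -0.10 to 0.14. The 18 with small subunit symbols, RPS19BP1 among them, had a median of 0.015 (13 above 0, 5 below). Their range was -0.083 to 0.16. Without RPS19BP1 and the copies RPL3L, RPL7L1, RPL22L1 and RPS27L, 30 large subunit genes had a median of 0.011 (19 above 0, 11 below). The 16 small subunit genes then had a median of 0.015 (12 above 0, 4 below). The large subunit median minus the small subunit median was -0.0036 in the main setting and ran from -0.0088 to 0.0023 over the alternatives, taking both signs.

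In the large subunit, the stalk recruits the elongation factors that drive translation. Its core protein gene RPLP0 had signals of 114535 and 96354 in R80C cells, against 114847 and 96838 in H2A.Z.1 cells, and a difference of 0.025. RPLP1, whose product forms the flexible part of the stalk, had 318692, 212816 and 184921 in R80C cells, against 319090, 215392 and 184475 in H2A.Z.1 cells, also a difference of 0.025. Each of the 5 probes of these genes lay between 0.013 and 0.034, so both genes lay close to the median of all genes. RPL12, which forms the base of the stalk with RPLP0, had 137692 and 83332 in R80C cells, against 145189 and 85761 in H2A.Z.1 cells, with a difference of -0.028. RPL5, which carries the smallest ribosomal RNA of the large subunit and, when free, binds the p53 inhibitor MDM2, had 137261 and 120362 in R80C cells, against 136391 and 122785 in H2A.Z.1 cells (0.021). RPL3 and RPL8 reach towards the site of peptide bond formation. RPL3 had a difference of -0.0020, its 4 probes reading 253238, 57622, 56477 and 39762 in R80C cells, against 262309.7, 59184, 56746 and 40720.5 in H2A.Z.1 cells. RPL8 stood at 0.011, with mean signals of 174516 in R80C cells and 177368 in H2A.Z.1 cells over 3 probes. None of these values exceeded the SD between probes of a gene.

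The exit tunnel, through which the nascent chain leaves, is lined in part by RPL4, RPL17 and RPL39, and its rim is formed in part by RPL26, RPL31 and RPL35. These 6 genes, read by 15 probes, had a median difference of 0.0026, with 3 above 0 and 3 below. RPL35 was the highest, on a single probe with a signal of 230510.3 in R80C cells and 225152 in H2A.Z.1 cells (0.065), and RPL31 the lowest, with 172882 and 13520.4 in R80C cells, against 180884 and 14042 in H2A.Z.1 cells (-0.029). RPL4 lay at -0.018, and all 4 of its probes were below 0 by at most 0.038. RPL17 stood at 0.031 over 2 probes, RPL26L1 at 0.016 over 4 and RPL39L at -0.011 over 2. None of the 6 lay farther from 0 than the SD between probes of a gene over all named genes.

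The other 18 ordinary large subunit genes had a median of 0.0088, with 12 above 0 and 6 below. At the upper end stood RPL30, which in yeast binds its own transcript, with 209279 in R80C cells and 206087 in H2A.Z.1 cells (0.053, 1 probe). RPL38, which in the mouse embryo is needed for the translation of some Hox transcripts, had 164700.0 in R80C cells and 163319.9 in H2A.Z.1 cells (0.043, 1 probe). RPL34 stood at 0.037 and RPL36 at 0.033. At the lower end stood RPL32, with 267155 and 184952 in R80C cells, against 283170.2 and 190999 in H2A.Z.1 cells (-0.035). RPL22, an RNA-binding protein needed for T cell development in mice, followed with 145030.4 in R80C cells and 150389.8 in H2A.Z.1 cells (-0.022, 1 probe). RPL27 and RPL19 both lay at -0.011. The remaining genes of this group, RPL6, RPL7, RPL7A, RPL9, RPL13, RPL27A, RPL29, RPL35A, RPL37 and RPL37A, lay between -0.0062 and 0.030. RPL35A read 235794.5, 132623 and 512 in R80C cells, against 248335.6, 131459 and 529.6 in H2A.Z.1 cells, and RPL37 read 86438, 33634 and 6099 in R80C cells, against 85101, 33733 and 6370.4 in H2A.Z.1 cells. RPL13 had 163199 and 128134 in R80C cells, against 174343 and 124664 in H2A.Z.1 cells, and combined a mean of 0.0028 with probes at -0.065 and 0.070, so its 2 probes pointed opposite ways by more than most means differed from 0.

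Of the members, 3 lay farther from 0 than the SD between probes of a gene over all named genes (0.094). They were RPS4Y1 and 2 genes whose symbol marks a second copy of a ribosomal protein, RPL22L1 and RPL3L. No other member lay outside 0.1 of 0, and 94.1% of members and 62.2% of named genes lay within it. RPS12 (-0.083), RPS19BP1 (0.080) and RPL35 (0.065) also passed the SD between probes in the members (0.064). RPL3L and RPL22L1 had the lowest mean signals of all members, so being a second copy and being dim cannot be told apart. RPL22L1, which in mice is held down by the RPL22 protein and increases when RPL22 is lost, had signals of 8866, 8173 and 6159 in R80C cells, against 8230.2, 7710.3 and 5565 in H2A.Z.1 cells. All 3 probes were higher in R80C cells, by 0.11 to 0.18, with a mean of 0.14 (1.1-fold), and the gene lay between 0.12 and 0.18 over the alternatives. RPL22L1 minus RPL22 was 0.17 on this scale, a contrast that no scaling constant can move, and ran from 0.15 to 0.17 over the alternatives. RPL3L, the striated muscle copy of RPL3 in mammals, had only 423 and 380.3 in R80C cells, against 467 and 414 in H2A.Z.1 cells. Both probes were lower in R80C cells, with a mean of -0.10, and the gene ran from -0.12 to -0.065 over the alternatives, while RPL3L minus RPL3 was -0.10 and ran from -0.10 to -0.066. In the main setting these differences are within 1 SD of the scanner's error estimate (0.20). They are farther from 0 than the SD of 0.066 between repeated spots of a probe, which came from 42 other probes not matched for brightness. The RPL3L value lies within the SD of 0.15 of the differences of 2987 other named probes with signals between 200 and 2000. For RPL22L1 no such set of probes of like brightness was drawn. Genes of the mitochondrial ribosome ran from -0.19 to 0.24 and those of ribosome biogenesis from -0.0049 to 0.19, so a value of 0.14 was not particular to RPL22L1. Probes of 1 gene share their RNA, so they are no replicates of the cells.

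RPL7L1, which acts in large subunit assembly, had 13171 and 12030.3 in R80C cells, against 13142 and 11704 in H2A.Z.1 cells, a difference of 0.052, while RPL7 had 141089.8 in R80C cells and 143436 in H2A.Z.1 cells (1 probe). RPL7L1 minus RPL7 was 0.045 and lay between -0.0033 and 0.045 over the alternatives. RPS27L, a p53 target in human cells, had 23995 and 12562 in R80C cells, against 23721 and 13341 in H2A.Z.1 cells, and its probes lay at 0.047 and -0.056 around a mean of -0.0045. No probe was assigned to RPS27, so that pair could not be compared. RPS19BP1, which binds RPS19, had 13689 and 10460.2 in R80C cells, against 13029 and 10269 in H2A.Z.1 cells (0.080).

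In the small subunit, the 6 members of the head, among them RPS3, RPS10, RPS12, RPS15 and RPS29, had a median difference of 0.015, with 4 above 0 and 2 below. RPS3, which lines the entry of the messenger RNA channel, had a signal of 164561 in R80C cells and 162978 in H2A.Z.1 cells (0.045, 1 probe). RPS15, near the decoding site, had 253211 in R80C cells and 255519 in H2A.Z.1 cells (0.018, 1 probe), and RPS29 had 255959 in R80C cells and 258969 in H2A.Z.1 cells (0.014, 1 probe). RPS10, a site of ubiquitin marking when ribosomes collide, had 194011 and 90538 in R80C cells, against 196361 and 91343 in H2A.Z.1 cells (0.016). RPS12 had the lowest gene value of the small subunit, -0.083, but its bright probe read 149269 in R80C cells and 147716 in H2A.Z.1 cells (0.046), and the negative mean came from a dim probe with 224 in R80C cells and 264 in H2A.Z.1 cells (-0.21). With the brightest probe alone RPS12 therefore took the opposite sign.

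The body and platform hold the other 10 ordinary small subunit genes, with a median of 0.010, 8 above 0 and 2 below. RPS6, the substrate of the S6 kinases and a usual readout of mTOR activity at the protein level, had a signal of 131883 in R80C cells and 134616 in H2A.Z.1 cells (0.0011, 1 probe). RPS2, at the messenger RNA entry with RPS3, stood at 0.018 with all 3 probes between 0.013 and 0.024. RPSAP58, the gene of RPSA, which is also known as the laminin receptor, had 202838 and 120719 in R80C cells, against 205473 and 123772 in H2A.Z.1 cells (0.0033). RPS24 had 145463 and 67017 in R80C cells, against 143210.2 and 66024 in H2A.Z.1 cells, and its 2 probes gave almost the same value, 0.053 and 0.052. RPS3A stood at 0.016 and RPS13 at 0.025. RPS14, the gene lost in the human 5q- syndrome, had 183831 and 78867 in R80C cells, against 185189 and 81471 in H2A.Z.1 cells, and on a dim probe 882 in R80C cells and 1019 in H2A.Z.1 cells. The differences of these probes were 0.020, -0.016 and -0.18, with a mean of -0.058, so the brightest probe alone had the opposite sign.

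RPS4Y1, the chicken RPS4 gene, had the largest positive value of all members, 0.16 (1.12-fold), and it rested on 1 of 4 probes. That probe read 130269.8 in R80C cells and 96283 in H2A.Z.1 cells, a difference of 0.47 or 1.38-fold. The other probes read 154660.2, 124089 and 56151 in R80C cells, against 154166, 123749 and 52748 in H2A.Z.1 cells, with differences of 0.035, 0.035 and 0.12. Without the high probe the gene stood at 0.064, and with its brightest probe at 0.035. The raw median signal of the high probe was 147723 in R80C cells and 106878 in H2A.Z.1 cells, over a local background of 30.5 in R80C cells and 31 in H2A.Z.1 cells, so the gap was already in the unprocessed spot. Among 563 probes at 50000 or brighter it had the largest positive difference, and 2 of these probes were at least 1.2-fold higher and 1 at least 1.2-fold lower in R80C cells. It lay 2.29 SD of the scanner's error estimate from 0. Its distance from 0 also exceeded the SD of 0.066 between repeated spots of a probe. All 4 probes carry the same RefSeq accession, and the sources used here do not place them on the transcript.

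A list of genes mutated in human Diamond-Blackfan anaemia, a failure of red cell production, held 7 members. Among them were RPL5, RPL27, RPL35A, RPS10, RPS24 and RPS29. The list was not complete, so the values below cover only these 7. Their median difference was 0.014, 4 lay above 0 and 3 below, and they ran from -0.011 for RPL27 to 0.053 for RPS24, inside the range of the other members.

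Probes of 1 gene differed far more in signal than in their difference between the arrays. Of the 36 members with several probes, 23 had signals less than 2-fold apart in H2A.Z.1 cells, 8 were 2-fold to 10-fold apart and 5 were 10-fold apart or more. The median span between the brightest and the dimmest probe was 1.72-fold in R80C cells and 1.71-fold in H2A.Z.1 cells, whereas the median range of the differences was 0.036. The widest spans were those of RPS12 (668-fold in R80C cells and 559-fold in H2A.Z.1 cells), RPL35A (460-fold in R80C cells and 469-fold in H2A.Z.1 cells), RPS14 (208-fold in R80C cells and 182-fold in H2A.Z.1 cells), RPL37 (14.2-fold in R80C cells and 13.4-fold in H2A.Z.1 cells) and RPL31 (12.8-fold in R80C cells and 12.9-fold in H2A.Z.1 cells). In each of these genes the dim probe lay below 0, by 0.018 for RPL35A, 0.024 for RPL31, 0.032 for RPL37, 0.18 for RPS14 and 0.21 for RPS12. Under 2000 on both arrays read 5 member probes, both of RPL3L and the dim ones of RPL35A, RPS12 and RPS14, and all 5 were below 0. Among 2987 other named probes between 200 and 2000 the median difference was 0.010 and the SD 0.15. How many of these other probes lay below 0 was not counted, so the shared sign of the 5 cannot be set against them. By the range of differences the widest genes were RPS4Y1 (0.43), RPS12 (0.26), RPS14 (0.20), RPL13 (0.13) and RPS27L (0.10). In all, 15 of the 36 had every probe above 0, 7 had every probe below 0 and 14 had probes of both signs, and after loess these counts were 12, 9 and 15. Only 2 probes were present for 22 of the 36. These counts were not made for the other named genes, so they do not show whether members differ from them here.

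A feature that the rule did not use was the hosting of small nucleolar RNA (snoRNA) genes, whose products guide the modification of ribosomal RNA. In the RefSeq table of assembly GRCg7b, which served here for names and neighbours only, 17 of the 51 members (33.3%) held at least 1 snoRNA gene within their bounds, against 43 of 5373 named protein-coding genes (0.800%). These 17 held 35 of the 186 snoRNA genes of the table, with 5 in RPL4, 4 in RPL17 and 3 in each of several genes, among them RPL7A, RPS3 and RPS12. The hosts had a median difference of 0.0033, from -0.083 to 0.053 with 10 above 0, and the other 34 members had 0.015, from -0.10 to 0.16 with 24 above 0. Of all named genes 55.6% lay above 0. Both medians are small beside the SD of 0.044 between members, and the count of members above 0 changed with the scaling. Whether hosts differ from other members was not tested. No 2 members were direct neighbours in the order of protein-coding genes.

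Genes that work with the ribosomal proteins were compared by lists, all on the same scale. RACK1, a scaffold on the head of the small subunit, stood at 0.053, with signals of 286925 in R80C cells and 282551 in H2A.Z.1 cells. Other genes with a known pyrimidine tract had a median of 0.010 over 11 measured genes, 6 above 0 and 5 below. They ran from VIM at -0.89 to PABPC1, the poly(A)-binding protein, at 0.052. VIM, the intermediate filament vimentin, was dim, with 29.7 in R80C cells and 58.4 in H2A.Z.1 cells, and was the 1 gene of the list past 1.5-fold. Of the regulators only MYC, GABPA, GABPB1 and SP1 were measured, from GABPA at 0.0057 to MYC at 0.15, where the single MYC probe read 21282 in R80C cells and 19653 in H2A.Z.1 cells. Among the ribosomal S6 kinases RPS6KA1 stood at 0.075, RPS6KB1 at 0.036 and RPS6KA5, on 1 probe, at -0.33. The dedicated chaperones and import factors HEATR3, PDCD2 and PDCD2L lay at 0.026, 0.042 and 0.13.

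Genes of the mitochondrial ribosome and of ribosome biogenesis served for comparison. The 36 measured genes of the mitochondrial ribosome had a median of 0.030, with 23 above 0 and 13 below, from MRPS14 at -0.19 to MRPS26 at 0.24. The 30 measured ribosome biogenesis and RNA polymerase I genes had a median of 0.073, with 29 above 0 and 1 below, from DDX47 at -0.0049 to TAF1B at 0.19. After loess the medians were -0.0045 for the members, 0.0075 for the mitochondrial ribosome and 0.056 for ribosome biogenesis, with 24 of 51, 21 of 36 and 25 of 30 genes above 0. No gene of either list was 1.2-fold different, against 10.1% of all named genes. The median over all named genes was 0.013 in the main setting, with 55.6% above 0, and 0.0018 after loess, with 50.7% above 0. With 1 array per group these differences between lists could not be tested.

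**Figure D4:**
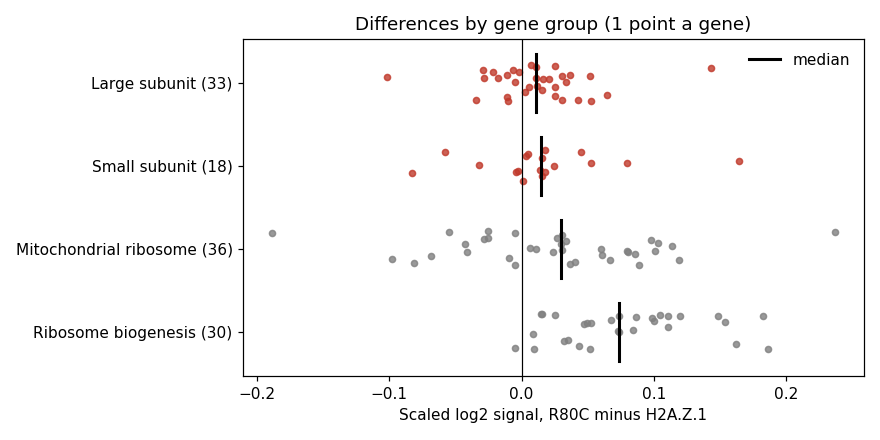
Scaled log2 signal, R80C minus H2A.Z.1, of each gene (points) and the median (black bars) for the large subunit (33 genes), the small subunit (18), the mitochondrial ribosome (36) and ribosome biogenesis (30). The small subunit points include RPS19BP1. The 2 subunits centre near 0 (0.011 and 0.015) and ribosome biogenesis at 0.073.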

How the data were processed

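Total RNA of 1 culture per group was hybridised, after Cy3 labelling, to Agilent arrays read in 1 colour, per the labels' protocols. The deposited scanner files hold linear intensity from Agilent Feature Extraction 11.5.1.1, background-subtracted and detrended within an array, on a galGal3 grid, per the file headers. The authors' series matrix holds linear intensity equal to the processed signal times 1.51 in R80C cells (column median 125.1) and 1.50 in H2A.Z.1 cells (column median 129.9). Why it was so scaled is unknown.

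The main value was log2 of the processed signal minus log2 of the array's 75th percentile. Probes counted as measured if both arrays flagged them well above background and neither as saturated or an outlier, and a gene was the mean of its probes. Alternatives used loess (statsmodels 0.14.6) and normexp with an offset of 50 on the raw median signal (limma 3.58.1). Accessions were named, without version, through a RefSeq table of assembly GRCg7b, so no coordinates are given. The calculation was tested on simulated data for the direction of planted changes. These were all larger than any member difference, so differences as small as those of the members were not tested.

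The members, lists and role groups were chosen with earlier results of these data known. Any member could be named, except that a few genes are not reported here by name and are not drawn singly, although they count in the totals. Signals were given for stalk genes, paralogs, RPSA, the 8 highest and 8 lowest differences, the widest probe spreads, and RPS6 and RPL5. No sequence was printed.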

Additional observations from a re-analysis of the deposited data

How the results depend on the processing

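The median difference of the ribosomal protein genes ran from -0.0079 with spike-in scaling to 0.049 when the arrays were scaled on their medians, and relative to the median of all named genes from -0.0078 to 0.012. The count of members above 0 was 18 with spike-in scaling, against 34 in the main setting, because a constant shift moves values this close to 0 across it. The count of members at least 1.5-fold different was 0 in the main setting and all 10 alternatives, and so was the count at 1.2-fold, a threshold chosen after seeing the data. Of the single genes, RPS12 was 0.046 with the brightest probe of a gene and -0.083 in the main setting, and RPS4Y1 was 0.035 with its brightest probe and 0.16 in the main setting, or 0.064 without its highest probe, a choice made after seeing the data. With the brightest probe RPS14 was 0.020, against -0.058 in the main setting, and RPL13 was -0.065, against 0.0028. Apart from RPS12 and RPS4Y1, every value for a single member, RPS14 and RPL13 included, moved by less than the SD between probes over all named genes (0.094). No paired analysis was possible because each group had 1 array. The number of arrays limits the precision, and the signals of most members lie far above background, so detection was not a limit here.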

Other observations

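Among the 568 named genes with 4 or more measured probes, RPS4Y1 had the 28th widest range of differences between its probes, 0.43 against a median range of 0.12.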
